A study of Homo sapiens
Mus musculus and Mus musculus and Homo sapiens with 16 samples.

Results

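Transcripts of 10 genes of TGF-β and BMP signalling were followed in cells of the human mantle cell lymphoma (MCL) line REC-1. Among these 10 genes, the co-repressor gene SKIL differed most between culture conditions. The genes were taken by symbol (SKIL, SKI, TGIF1, SMAD3, SMAD7, TGFB1, BMP5, TGFBR1, TGFBR2 and ID3) from the 58051 genes of the human count table. They were picked with results from these same libraries in view, so their values in REC-1 cells are given as a description, without p-values. All 10 passed the filter on low counts, as did 12861 genes in total. Groups of 4 RNA-seq libraries came from REC-1 cells kept alone (Sep), from REC-1 cells floating in coculture with MS-5 cells (Susp), from REC-1 cells attached to MS-5 cells (Adh) and from MS-5 cells alone (MS5). MS-5 is a stromal line from mouse bone marrow, and the labels name no drug or genetic change for any group. RNA was taken 24 h after REC-1 cells were added to the stroma. The attached cells were not sorted away from MS-5, so the Adh libraries held human and mouse RNA, and read pairs were assigned to a species by computation.

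TGF-β and BMP ligands bind paired type I and type II receptors, which phosphorylate receptor-regulated SMAD proteins. These enter the nucleus with SMAD4, while SMAD7 blocks the receptors and SKI, SKIL and TGIF1 hold SMAD target genes down through co-repressor complexes. SKIL and SMAD7 are themselves known targets of TGF-β, so the pathway limits itself, and ID3 is a known target of BMP. In B cells, TGF-β restrains growth and takes part in the switch to IgA.

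Sequence ahead of the gene start is shown for SKIL, SKI and ID3, because these members have a SMAD half-site there. SKIL was also the member that differed most between the cultures. The sequence of SMAD7, which has half-sites too, is not shown here. Each run holds the 250 bases before the outermost annotated start of the gene in GRCh38 (GENCODE release 44), read 5′ to 3′ on the strand of the gene, and none of its bases is exonic. Capitals mark CAGAC, its reverse complement GTCTG, or GGCGCC, a GC-rich SMAD motif that reads the same on both strands.
SKIL, chr3:170357092-170357341, plus strand: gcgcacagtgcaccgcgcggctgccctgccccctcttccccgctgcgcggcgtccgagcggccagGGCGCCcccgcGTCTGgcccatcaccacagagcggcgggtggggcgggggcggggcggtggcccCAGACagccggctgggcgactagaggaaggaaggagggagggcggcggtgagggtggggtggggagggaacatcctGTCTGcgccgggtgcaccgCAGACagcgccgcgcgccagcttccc
SKI, chr1:2227138-2227387, plus strand: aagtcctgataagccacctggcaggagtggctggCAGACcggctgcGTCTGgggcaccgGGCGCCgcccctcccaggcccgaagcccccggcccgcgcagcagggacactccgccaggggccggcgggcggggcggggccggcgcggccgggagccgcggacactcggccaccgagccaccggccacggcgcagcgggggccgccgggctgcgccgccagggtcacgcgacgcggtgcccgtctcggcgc
ID3, chr1:23559502-23559751, minus strand: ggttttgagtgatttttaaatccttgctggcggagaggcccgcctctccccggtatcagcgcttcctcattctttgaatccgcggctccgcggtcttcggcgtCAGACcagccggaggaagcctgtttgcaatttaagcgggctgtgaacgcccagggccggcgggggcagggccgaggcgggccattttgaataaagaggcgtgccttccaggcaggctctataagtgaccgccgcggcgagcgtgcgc
The SKIL run held 4 half-sites, that of SKI held 2 and that of ID3 held 1. On either strand, CAGAC was found ahead of 4 of the 10 members (these and SMAD7) and of 37.5% of 20032 protein-coding genes. The GGCGCC motif, which can share an end base with CAGAC or GTCTG, stood ahead of SKIL and SKI and of 18% of all these genes. The full palindrome GTCTAGAC was ahead of none of the members and of 0.205% of all genes. These matches describe letters in the sequence and not bound sites.

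Human counts came to between 7758979 and 21467832 per REC-1 library. Values are given as CPM (counts scaled to library depth by the TMM method), and, where genes are compared with each other, per kilobase of exon as well (RPKM). The 7 markers of B cells and MCL summed to between 4801 and 6246 CPM in every REC-1 library. The 6 markers of stroma summed to at most 0.77 CPM in human counts. Markers of T cells reached 8.73 CPM in sum and those of monocytes 2.20 CPM. In the mouse counts, the 6 stromal markers summed to between 3413 and 4033 CPM, with Lum and Dcn at 0 in every library. LUM and DCN could thus not show stromal RNA among the human counts. REC-1 libraries differed in base composition. The GC gap, the median log2 deviation of the genes richest in GC (above the upper quartile) minus that of the poorest (below the lower quartile), was 0.62 in Susp replicate 2 at one end and -0.48 in Sep replicate 1 and -0.43 in Adh replicate 1 at the other, with the remaining libraries between -0.25 and 0.25. Replicate 1 had the lowest gap of each REC-1 group. In Susp replicate 2 long genes were also low, with a gap of -0.61 between genes above and below the outer quartiles of length, against -0.11 to 0.17 elsewhere. For several members, results are therefore given also with a correction for GC content and length or without Sep replicate 1 and Susp replicate 2.

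SKIL fell to 34.5% of its monoculture level in floating and to 41.4% in attached cells, and TGIF1 fell in attached cells, whereas BMP5 was higher in attached than in floating cells. Of the 10 members, 1 was called between Susp and Sep cells (SKIL), with 0.731% of all tested genes called in that comparison. Between Adh and Sep cells 2 were called (SKIL and TGIF1) against 2.4% of all genes, and between Adh and Susp cells 1 was called (BMP5) against 0.778%. A call needed an adjusted p-value of at most 0.05 in edgeR's quasi-likelihood test over all genes and a fold change of at least 1.5. Since these contrasts served to choose the members, nothing is read from those counts. The libraries of SKIL, SMAD3 and SMAD7 (lower) and of ID3 (higher) did not overlap between Susp and Sep, making 4 of 10 members where 11.3% of all tested genes did not overlap. Between Adh and Sep the libraries of SKIL, SKI and TGIF1 (lower) and of BMP5 (higher) did not overlap, again 4 of 10, with 15.7% of all genes. Between Adh and Susp this held for BMP5 (higher), 1 of 10, with 11.4% of all genes. The median log2 fold change of the 10 members was -0.31 between Susp and Sep, -0.05 between Adh and Sep and 0.04 between Adh and Susp, and that of all tested genes lay at -0.01, 0.00 and -0.01. The comparisons share libraries, so their values are set side by side and are not independent. In RNA from whole cultures, fewer cells expressing a gene cannot be told apart from less RNA in each cell.

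**Figure D1:**
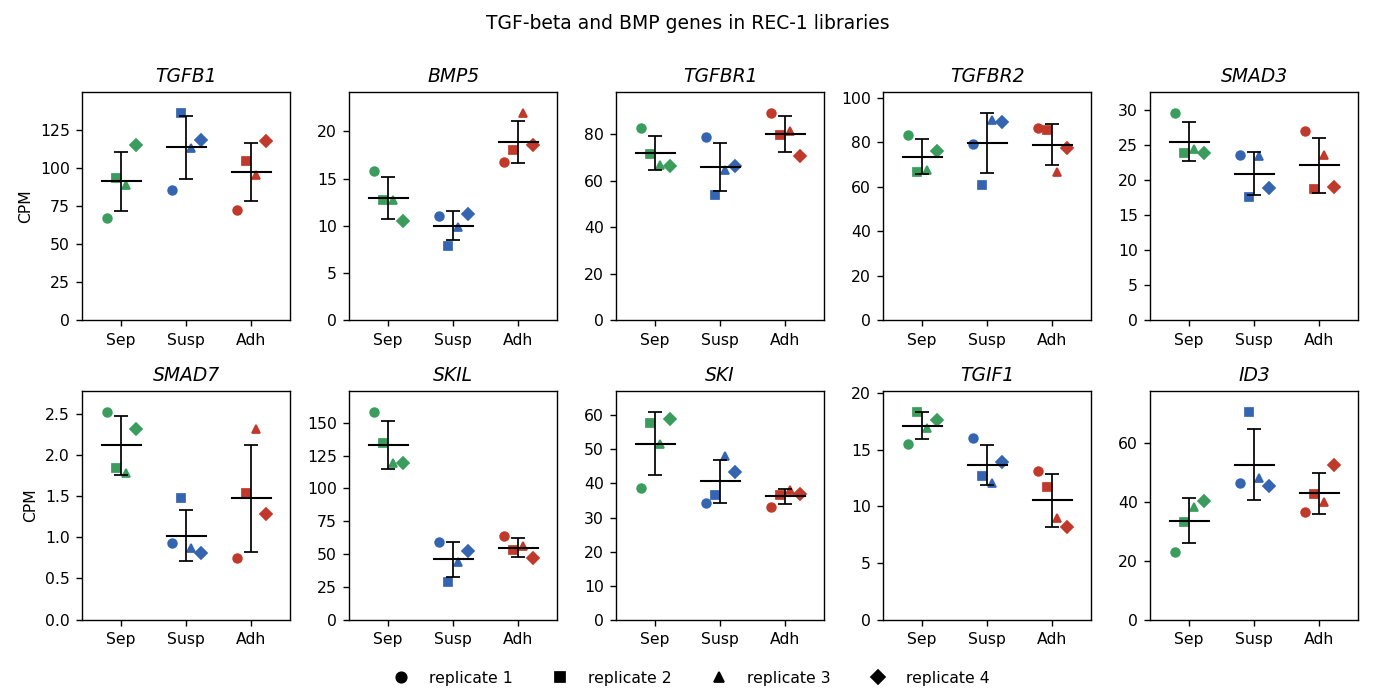
CPM of the 10 members (y axis, linear from 0) in each REC-1 library by group (x axis: Sep, Susp, Adh). Each marker is 1 library, the long line the mean and the bar the SD (n = 4). SKIL is high in all 4 Sep libraries and low in the other 8, and BMP5 is highest in the Adh libraries.

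SKIL encodes SnoN, which binds SMAD proteins and recruits histone deacetylase complexes to their target genes. The gene lies on chromosome 3 (170357342 to 170396835 in GRCh38, plus strand) with 8118 exonic bases. In Sep replicates 1 to 4 it was at 158, 134, 119 and 119.5 CPM, in Susp cells at 58.9, 28.5, 44.2 and 52.0 CPM, and in Adh cells at 63.9, 52.8, 56.3 and 46.7 CPM. No coculture library came near the lowest Sep library, while the Susp and Adh libraries overlapped. Group means were 132.8 ± 18.3, 45.9 ± 13.1 and 54.9 ± 7.18 CPM (SD, n = 4 each). The level in Susp cells was 34.5% of that in Sep cells (log2 fold change -1.54, SE 0.17), and the level in Adh cells was 41.4% (log2 fold change -1.27, SE 0.17). Between Adh and Susp the log2 fold change was 0.26 (SE 0.17), and this difference was not called.

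SKIL has a low GC share, 35.8% of the bases of its longest transcript, below all but 3.34% of tested genes. Its highest value came from Sep replicate 1, the library with the most negative GC gap, and its lowest from Susp replicate 2, the library with the highest. With the correction for GC content and length the log2 fold changes were -1.40 for Susp and -1.29 for Adh cells against Sep cells. Without both libraries they were -1.28 and -1.17, and with Adh replicate 1 left out as well they were -1.28 and -1.26. SKIL was called in both comparisons with Sep cells under every setting that was run.

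SKI is the close relative of SKIL and the founding member of this co-repressor family. Its gene is on chromosome 1 (2227388 to 2310213, plus strand). Sep libraries held 38.6, 57.7, 51.5 and 59.0 CPM, Susp libraries 34.4, 36.8, 48.0 and 43.3 CPM, and Adh libraries 33.2, 36.6, 38.0 and 36.9 CPM. Every Adh library was below every Sep library, with Sep replicate 1 just above the highest Adh library, and the Susp libraries overlapped both. The log2 fold change of Adh against Sep was -0.52 (SE 0.14), and that of Susp against Sep was -0.35 (SE 0.13). SKI was not called, but without Sep replicate 1 it was called lower in Adh than in Sep cells, with a log2 fold change of -0.63. With the correction for GC content and length, in contrast, the value was -0.36.

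Per length, SKIL was above SKI in Sep cells, with RPKM ratios of 3.38, 1.92, 1.91 and 1.67, and the ratio came to 2.22 ± 0.781 (SD, n = 4). In Susp libraries the ratio was 1.41, 0.638, 0.757 and 0.991, a mean of 0.949 ± 0.341. The 4 Adh libraries gave 1.58, 1.19, 1.22 and 1.04, a mean of 1.26 ± 0.231. All Sep ratios lay above all others, so the balance of the pair moved from SKIL toward SKI in coculture. SKI is rich in GC (61.4%), and the ratio was highest in Sep replicate 1 and lowest in Susp replicate 2, the libraries at the ends of the range of GC gaps.

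TGIF1 is a homeodomain protein that competes with coactivators for SMAD2 and SMAD3, and its gene is on chromosome 18 (3411608 to 3459978, plus strand). It was at 15.5, 18.3, 17.0 and 17.6 CPM in Sep, 16.1, 12.7, 12.1 and 13.9 CPM in Susp, and 13.2, 11.8, 8.99 and 8.21 CPM in Adh libraries. The Adh libraries were all below the Sep libraries, and the Susp libraries lay between and overlapped both. The log2 fold change was -0.68 (SE 0.16) for Adh against Sep, -0.32 (SE 0.15) for Susp against Sep and -0.36 (SE 0.16) for Adh against Susp. The call between Adh and Sep was lost on leaving out Sep replicate 2, 3 or 4 or Adh replicate 3 or 4. The log2 fold change nearest to 0 was then -0.58. It was also lost without replicate 2, 3 or 4 of every group, with a log2 fold change of -0.57 without replicate 4.

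**Figure D2:**
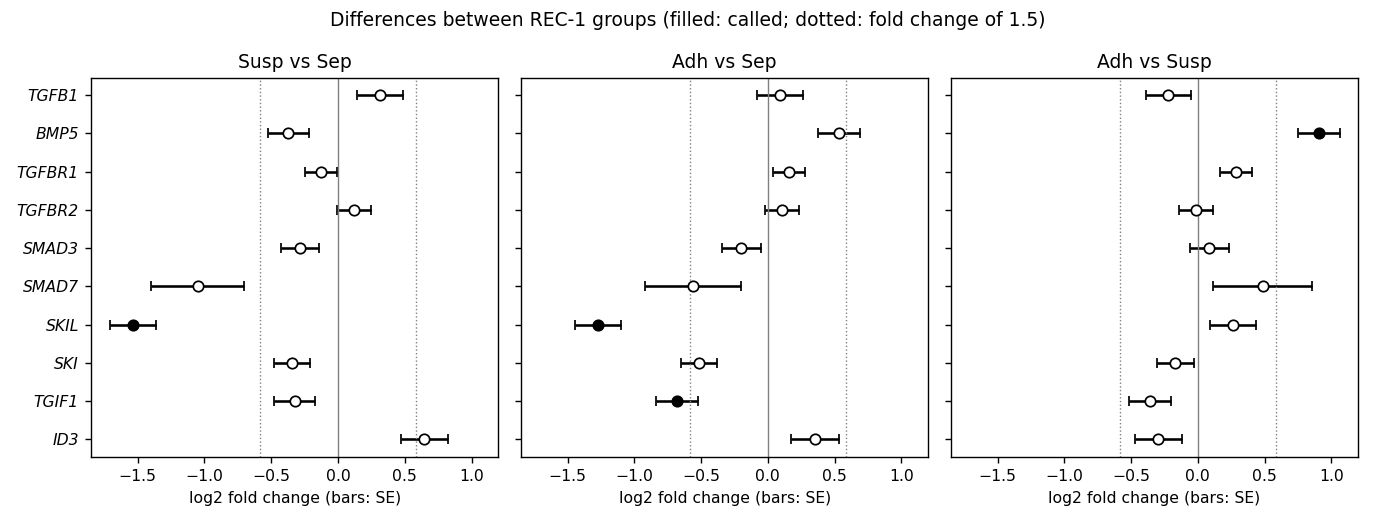
Log2 fold changes of the 10 members (x axis) in the comparisons Susp vs Sep, Adh vs Sep and Adh vs Susp, from 1 edgeR model of the 12 REC-1 libraries. Bars are SE, filled points were called, and dotted lines mark a fold change of 1.5. SKIL lies far to the left against Sep cells in both fractions, BMP5 lies to the right between Adh and Susp, and SMAD7 has the widest bars.

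Receptor-regulated SMAD3, which carries the TGF-β signal to DNA, is on chromosome 15 (67063763 to 67195173, plus strand). Its levels were 29.6, 23.9, 24.4 and 23.9 CPM in Sep, 23.6, 17.6, 23.4 and 18.9 CPM in Susp, and 27.0, 18.8, 23.6 and 19.0 CPM in Adh libraries. The Susp libraries were all lower than the Sep libraries, but by a small margin, and the log2 fold change was -0.29 (SE 0.14). For Adh against Sep it was -0.20 (SE 0.15), with overlapping libraries. Without Sep replicate 1 and Susp replicate 2, the log2 fold change of Susp against Sep was -0.14.

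SMAD7, the inhibitory SMAD of the TGF-β branch, was the weakest member and rested on few counts. The gene, on chromosome 18 (48919853 to 48950965, minus strand), had 32, 22, 17 and 29 counts in Sep, 14, 24, 18 and 12 in Susp, and 10, 16, 18 and 10 in Adh libraries. Scaled to depth these were 2.52, 1.84, 1.78 and 2.31 CPM in Sep, 0.93, 1.48, 0.87 and 0.81 CPM in Susp, and 0.75, 1.54, 2.31 and 1.28 CPM in Adh. Susp libraries were all below Sep libraries, whereas Adh libraries spanned both. The log2 fold change of Susp against Sep was -1.05 with an SE of 0.35, and this difference was not called. For Adh against Sep it was -0.56 (SE 0.36), and without Adh replicate 1, Sep replicate 1 and Susp replicate 2 it was -0.21. Between Adh and Susp the log2 fold change was 0.49 (SE 0.37), and without these 3 libraries it was 0.98, called in neither case.

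BMP5, a secreted ligand of the BMP branch, was the member with the widest difference between the coculture fractions. The gene is on chromosome 6 (55753653 to 55875590, minus strand). REC-1 libraries held 15.8, 12.7, 12.8 and 10.5 CPM in Sep, 11.1, 7.87, 9.91 and 11.3 CPM in Susp, and 16.8, 18.0, 22.0 and 18.6 CPM in Adh. Every Adh library was above every library of the other groups, and the Susp libraries overlapped the Sep libraries at the low end. Means were 13.0 ± 2.18, 10.0 ± 1.57 and 18.8 ± 2.23 CPM (SD, n = 4). The Adh level was 1.87-fold that of Susp cells (log2 fold change 0.90, SE 0.16). Against Sep cells the log2 fold change was 0.53 (SE 0.16) in Adh and -0.37 (SE 0.16) in Susp cells, neither called. Without Sep replicate 1, however, BMP5 was called higher in Adh than in Sep cells. With Susp replicate 2 left out as well, the log2 fold change of Susp against Sep was -0.16.

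The call of BMP5 between Adh and Susp held on leaving out any 1 library, but was lost without replicate 3 or replicate 4 of every group at once, with log2 fold changes of 0.82 and 0.97. The gene is poor in GC (36.2%), and with the correction for GC content and length the log2 fold change was 0.77, still called. MS-5 cells transcribe Bmp5 too, with 591 to 865 mouse counts in the same Adh libraries beside 145 to 223 human counts. The human counts above the Susp level came to 66.7 to 92.8 per library, which is 9.65% to 14% of the mouse Bmp5 counts. Over 15 genes nearly silent in Sep cells but counted in MS-5 cells, such as COL1A1 and THBS1, the Adh libraries held 57 human beside 887227 mouse counts, or 0.00642%. BMPER had the highest such share, 0.624%. The share differed from gene to gene, and the part of stromal RNA in the values of BMP5 was not tested.

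TGFB1 encodes the ligand TGF-β1 and was among the most abundant members. It lies on chromosome 19 (41301587 to 41353922, minus strand). It was at 67.4, 93.6, 88.8 and 115 CPM in Sep, 85.7, 136, 113 and 118 CPM in Susp, and 72.2, 104, 95.3 and 118 CPM in Adh libraries. The groups overlapped throughout, and replicate 1 was lowest in each of them. The log2 fold change was 0.31 (SE 0.17) for Susp and 0.09 (SE 0.17) for Adh against Sep cells. TGFB1 is very rich in GC (63.6%), and with the correction the Susp value was 0.07 and the value of Adh against Susp went from -0.22 to 0.12. In GENCODE its exons share 215 bases with HNRNPUL1 on the other strand. The library kit did not mark strand, so reads in that stretch cannot be told apart.

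The receptors differed little. TGFBR1, the type I kinase on chromosome 9 (99104038 to 99154192, plus strand), was at 82.7, 71.7, 67.0 and 66.6 CPM in Sep, 79.0, 53.8, 64.6 and 66.4 CPM in Susp, and 89.3, 79.7, 81.5 and 70.6 CPM in Adh libraries. TGFBR2, the type II receptor that binds the ligand first, on chromosome 3 (30606601 to 30694142, plus strand), was at 83.3, 66.5, 67.7 and 76.2 CPM in Sep, 79.4, 60.8, 90.0 and 88.8 CPM in Susp, and 86.3, 85.4, 66.8 and 77.2 CPM in Adh libraries. Groups overlapped in every comparison of both receptors. The widest difference was that of TGFBR1 between Adh and Susp cells, with a log2 fold change of 0.29 (SE 0.12), and it was 0.14 after the correction for GC content and length. The other 5 lay between -0.13 and 0.16.

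ID3, an inhibitor of basic helix-loop-helix factors such as E2A in B cells, is on chromosome 1 (23557926 to 23559501, minus strand). Its libraries held 23.0, 33.0, 38.1 and 40.2 CPM in Sep, 46.2, 70.4, 48.1 and 45.3 CPM in Susp, and 36.4, 42.6, 40.0 and 52.3 CPM in Adh. Each Susp library was above each Sep library, and the Adh libraries overlapped both groups. The log2 fold change was 0.65 (SE 0.18) for Susp and 0.35 (SE 0.18) for Adh against Sep, neither called. The former was called with DESeq2, with no filter on low counts and with the replicate number in the model, at log2 fold changes of 0.64 to 0.66. ID3 was lowest in Sep replicate 1 and highest in Susp replicate 2, the reverse of SKIL, and it has 56.7% GC and short exons of 1496 bases in all. Corrected for GC content and length the log2 fold change of Susp against Sep was 0.44, and without both libraries it was 0.32.

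**Figure D3:**
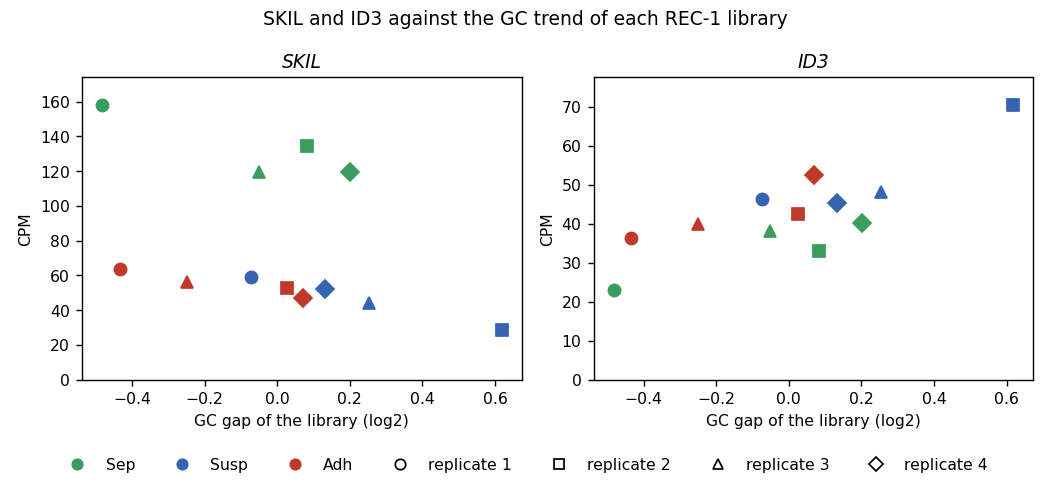
SKIL and ID3 (y axis, CPM from 0) against the GC gap of each of the 12 REC-1 libraries (x axis, log2). Colours give the group and marker shapes the replicate number. Sep replicate 1 on the left and Susp replicate 2 on the right hold the extremes of both genes, while the 4 Sep libraries lie above all others in SKIL. The highest GC gap of a Sep library is 0.20.

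Per length, TGFB1 (27.9 ± 5.96 RPKM) and ID3 (22.4 ± 5.13 RPKM) led the members in Sep cells and overlapped. SKIL followed at 16.4 ± 2.25 RPKM, overlapping ID3, and all its Sep libraries were above those of TGFBR2 (10.7 ± 1.15 RPKM), which overlapped TGFBR1 (9.01 ± 0.938 RPKM), as TGFBR1 did SKI (7.73 ± 1.40 RPKM). BMP5 (3.26 RPKM), SMAD3 (2.54 RPKM), TGIF1 (2.11 RPKM) and SMAD7 (0.535 RPKM) came last, of which BMP5 and SMAD3 overlapped. SKIL went from rank 3 in Sep to rank 6 in Susp cells, at 5.65 ± 1.61 RPKM and overlapping SKI. In Adh cells it was at rank 5 with 6.76 ± 0.884 RPKM, above every library of SKI. With SKIL set aside, the order of the other members was the same in the 3 groups, except that ID3 and TGFB1 traded the first places in Susp cells.

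Genes with profiles most like that of SKIL were looked for among 8492 genes with a mean of at least 10 CPM, by the root mean square difference of centred log2 CPM over the 12 libraries. The nearest were TMEM132B (0.28), IPCEF1 (0.30), CNR1 (0.31), UBASH3B (0.35) and CR1 (0.36). CNR1, the cannabinoid receptor CB1, went from 101 ± 2.73 CPM in Sep to 53.4 ± 11.1 in Susp and 55.3 ± 5.42 in Adh cells. CR1, a complement receptor, was at 50.1 ± 5.18, 29.0 ± 5.84 and 30.0 ± 2.27 CPM. TMEM132B was at 20.7 ± 2.68, 8.89 ± 2.19 and 7.69 ± 0.843 CPM. All 5 were higher in Sep than in coculture on average, as the measure selects. For BMP5 the nearest were PIBF1 (0.14), SLC16A10 (0.15), CD44 (0.16), TFCP2 (0.18) and STS (0.20). CD44, a receptor for hyaluronan, was at 87.7 ± 11.2 CPM in Sep, 65.0 ± 7.56 in Susp and 118 ± 5.33 in Adh cells.

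Other genes of the pathway were taken from a list of 73 genes without the members, chosen with earlier results of these data known. The p-values of its genes are therefore descriptive. Of the 73, 45 had enough counts to be tested. In the edgeR test, 2 of them were called between Susp and Sep cells (1 higher and 1 lower), 1 between Adh and Sep (higher) and 0 between Adh and Susp, where 6 had an unadjusted p under 0.05 and DESeq2 also called 0. The shares of all tested genes called were 0.731%, 2.4% and 0.778%. Unadjusted p-values under 0.05 were found for 6 genes of the list (13.3%) between Susp and Sep, 10 (22.2%) between Adh and Sep and 6 (13.3%) between Adh and Susp, and for 16.7%, 20.2% and 18% of all tested genes. Between Susp and Sep a further gene was called under other settings. With DESeq2 it was LDLRAD4, an inhibitor of TGF-β signalling (log2 fold change -0.71, adjusted p = 0.0371 in DESeq2), and with no filter on low counts it was BMP3, which had no counts in Sep and 27 in all Susp libraries. The median log2 fold change of the 45 was -0.03, 0.02 and 0.14 in the order Susp vs Sep, Adh vs Sep and Adh vs Susp. Both genes that edgeR called among the filtered genes act on the latent form of TGF-β.

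LRRC32 encodes GARP, a membrane protein that holds latent TGF-β at the cell surface. It had 0.945, 2.26, 0.837 and 1.12 CPM in Sep, 7.04, 5.90, 5.75 and 4.43 CPM in Susp, and 4.21, 6.84, 8.74 and 3.59 CPM in Adh libraries. All 8 coculture libraries were above all Sep libraries. It rose 4.42-fold in Susp cells (log2 fold change 2.15, SE 0.34, adjusted p = 0.00345 in edgeR's quasi-likelihood test) and 4.44-fold in Adh cells (log2 fold change 2.15, SE 0.34, adjusted p = 0.00178 in the same test). These values rest on 8 to 27 counts in the Sep libraries, and without replicate 3 of every group the adjusted p-values of the edgeR test were 0.0593 and 0.0537. Mouse Lrrc32 was at 178 CPM in the mouse counts of the Adh libraries. Stromal markers summed to at most 0.398 CPM in the human counts of Susp libraries and 0.77 CPM in those of Adh libraries. The part of stromal RNA in the values of LRRC32 was not tested.

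LTBP1, which binds latent TGF-β to the matrix, went the other way. Its libraries held 50.2, 47.4, 38.5 and 45.8 CPM in Sep, 29.2, 18.7, 25.8 and 27.3 CPM in Susp, and 30.3, 31.6, 31.1 and 29.3 CPM in Adh. The coculture libraries were all below the Sep libraries, and the Adh libraries were all just above the Susp libraries. The fall in Susp cells came to -0.85 on the log2 scale (SE 0.13), with an adjusted p of 0.00237 by edgeR. In Adh cells it came to -0.57 (SE 0.13), with an adjusted p of 0.0229 by edgeR, a fold of 1.49 that missed the minimum of 1.5. This call was made without Sep replicate 3 (log2 fold change -0.64) and without Adh replicate 2 (-0.59). It was also made with at least 10 counts in every library (-0.59). LTBP1 was highest in Sep replicate 1 and lowest in Susp replicate 2. Without both libraries the fall in Susp cells came to -0.69 and was still called.

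**Figure D4:**
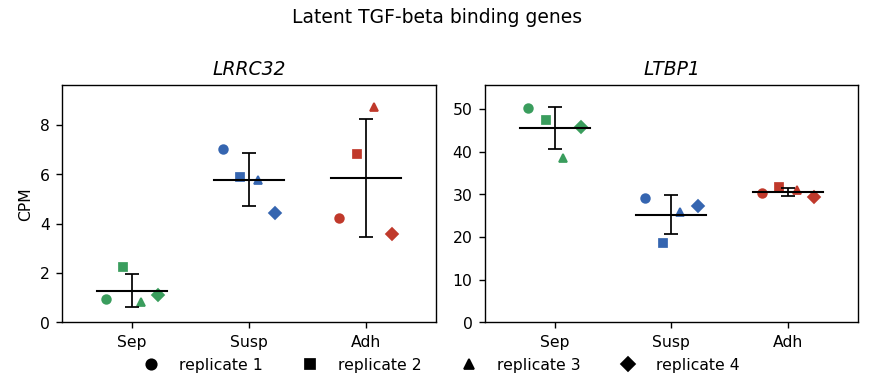
CPM of LRRC32 and LTBP1 (y axis, linear from 0) in each REC-1 library by group (x axis: Sep, Susp, Adh). Each marker is 1 library, the long line the mean and the bar the SD (n = 4). LRRC32 is low in Sep and higher in both coculture fractions, and LTBP1 is high in Sep and lower in both.

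Of the other roles in the list, 0 of 5 tested ligands, 0 of 8 receptors, 0 of 3 SMADs, 0 of 13 regulators, 0 of 7 targets and 0 of 2 secreted antagonists were called in any of the comparisons by edgeR. Of each role, with that of latent TGF-β storage and activation included, the most abundant gene per length was followed, and none of these genes was called. GDF11, a ligand of activin receptors, was at 56.6 ± 12.9 CPM in Sep, 67.8 ± 11.3 in Susp and 60.1 ± 2.77 in Adh cells. NRROS, which anchors latent TGF-β on myeloid cells, was at 38.3 ± 8.86, 52.8 ± 5.09 and 44.8 ± 11.7 CPM in the same order. BMPR1A, a type I receptor for BMP, was at 79.6 ± 4.89, 77.1 ± 10.4 and 84.5 ± 11.7 CPM. SMAD5, its substrate, was at 110 ± 14.5, 91.4 ± 21.5 and 104 ± 9.06 CPM. SMAD2 had a higher mean in CPM (114, 109 and 119) but 3.12 RPKM in Sep cells, against 12.2 RPKM for SMAD5. STRAP, a partner of SMAD7 at the receptor, was at 151 ± 12.6, 165 ± 10.1 and 179 ± 4.72 CPM, and TWSG1, a secreted BMP binder, at 93.3 ± 9.17, 91.2 ± 12.1 and 109.8 ± 8.70 CPM. ID2, the relative of ID3, was at 67.9 ± 5.08, 88.4 ± 8.21 and 90.0 ± 8.14 CPM, and for Adh against Sep cells its log2 difference was 0.41 (SE 0.10), with an adjusted p of 0.0302 by edgeR, below the fold minimum. The TGF-β targets TGFBI and CDKN2B had no counts in Sep cells.

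The mouse counts show what MS-5 cells expressed of the pathway with and without REC-1 cells, and none of these counts had served to choose the members. Of 58 mouse pathway genes 47 were tested, and edgeR called 0 of them between Adh and MS-5 cells alone, where 0.205% of all 12201 tested mouse genes were called. An unadjusted p under 0.05 was found for 10 (21.3%), against 11.3% of all tested mouse genes, DESeq2 also called 0, and their median log2 fold change was 0.06 against 0.00 for all genes. Without MS5 replicate 1, Inhba was called lower (log2 fold change -0.59, edgeR adjusted p = 0.00353).

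Mouse Skil was at 69.6 ± 4.72 CPM in MS-5 cells alone and 72.4 ± 13.8 CPM in coculture (log2 fold change 0.06, SE 0.11, edgeR adjusted p = 0.9). Bmp5 was at 22.1 ± 2.91 and 22.6 ± 2.03 CPM (log2 fold change 0.03, SE 0.10, edgeR adjusted p = 0.953). Neither orthologue showed a difference beyond its spread. Tgfb1 was at 71.2 ± 1.77 and 81.7 ± 4.61 CPM, higher in each Adh library than in each MS5 library, which held for 6.74% of all mouse genes in either direction (log2 fold change 0.20, SE 0.06, edgeR adjusted p = 0.185). The other 7 orthologues (Ski, Tgif1, Smad3, Smad7, Tgfbr1, Tgfbr2 and Id3) had log2 fold changes between -0.08 and 0.20 and overlapping libraries. Per length, the leading mouse ligands in MS-5 cells alone were Gdf15 (18.6 ± 4.69 RPKM), Tgfb1 (14.1 ± 0.351 RPKM) and Inhba (6.97 ± 1.48 RPKM). In coculture they were at 14.3 ± 5.04, 16.2 ± 0.914 and 5.13 ± 0.412 RPKM.

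Set side by side per length within the Adh libraries, the 2 species differed most in SMAD7 and TGIF1. Human SMAD7 was at 0.373 ± 0.165 RPKM and mouse Smad7 at 7.39 ± 0.921 RPKM. Human TGIF1 was at 1.30 ± 0.285 RPKM and mouse Tgif1 at 8.54 ± 0.698 RPKM. Human TGFB1, by contrast, was at 29.8 ± 5.85 RPKM against 16.2 ± 0.914 RPKM for mouse Tgfb1. SKIL (6.76 ± 0.884 RPKM) and Skil (7.47 ± 1.43 RPKM) had similar levels. The species were scaled separately and have different gene models, so these levels were not tested against each other.

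**Figure D5:**
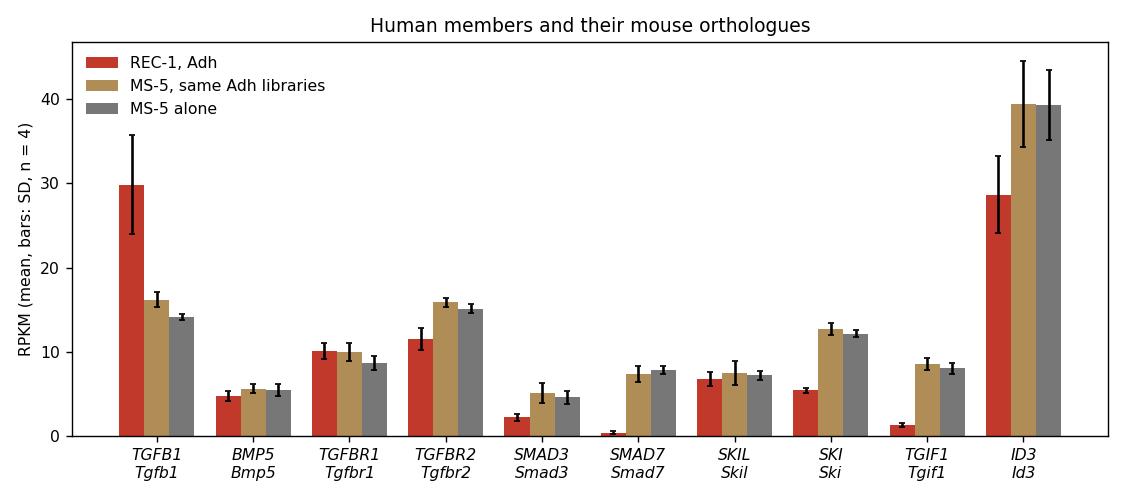
Mean RPKM (y axis, linear from 0; bars: SD, n = 4) of the 10 human members in REC-1 cells of the Adh libraries and of their mouse orthologues in the same libraries and in MS-5 cells alone. SMAD7 and TGIF1 are far lower in REC-1 than in MS-5 cells, TGFB1 is higher, and each mouse gene is at nearly the same level with and without REC-1 cells.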

How the data were processed

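RNA was selected by poly-T beads, made into TruSeq v2 libraries and sequenced in read pairs. The authors used Xenome to sort the pairs by species, and STAR 2.5.1b to align each set to GRCh38 or GRCm38 (Ensembl release 87), keeping uniquely mapped reads, and counted fragments per gene with featureCounts of Subread 1.5.2. The deposited values were raw counts for 58051 human and 49671 mouse genes. The other 20 columns of the tables were not used. Totals ranged from 7758979 to 21467832 human counts in the 12 REC-1 libraries, and in mouse counts from 10097555 to 17397651 for MS-5 alone and from 29495404 to 34615602 for Adh.

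In R 4.3.3, groups were compared with edgeR 4.0.16 (filterByExpr, TMM, quasi-likelihood F-test), the REC-1 groups in 1 model and the mouse counts in another, with Benjamini-Hochberg adjustment over all tested genes. Calls were made at an adjusted p no higher than 0.05 where the fold change was 1.5 or more. The study's legends call replicates independent experiments. In the labels, libraries with the same replicate number share a sample number. The labels do not say whether this marks a shared experiment across groups. Exon lengths, GC shares (of the longest transcript) and gene positions came from GENCODE releases 44 and 21 by Ensembl ID. Lengths joined all annotated exons of a gene and came from other releases than the counts, so orders by RPKM depend on the annotation. Log2 CPM used a prior count of 2. The tests were checked on simulated counts.

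The members and gene lists were chosen with earlier results of these data known. Named genes were the members, called genes of the pathway lists, the most abundant gene of each role in Sep cells, the mouse orthologues, the 3 leading mouse ligands, and the 5 genes most like SKIL and BMP5. COL1A1, THBS1, BMPER, HNRNPUL1, LDLRAD4, BMP3, TGFBI, CDKN2B, SMAD2, LUM, DCN and mouse Lum, Dcn and Lrrc32 were added after their values were seen. Alternatives were the replicate number as a block, DESeq2 1.42.0, no filter on low counts, a minimum of 10 counts in each library, upper-quartile scaling, no fold minimum, models of only the groups compared, and each library left out. A GC and length correction, alone and with the block, removal of Sep replicate 1 with Susp replicate 2 (and with Adh replicate 1), and removal of 1 replicate number from every group were added after seeing the data.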

Additional observations from a re-analysis of the deposited data

Results flagged for a closer look

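In 56 groups of 4 libraries, 2 held a library set apart by Dixon's gap criterion, which chance alone meets in about 5% of groups. SMAD3 in Sep replicate 1 was at 29.6 CPM, with the other Sep libraries between 23.9 and 24.4 CPM. ID3 in Susp replicate 2 was at 70.4 CPM, with the others between 45.3 and 48.1 CPM. These libraries were also at the ends of the range of GC gaps, and the part of base composition in these values was not tested.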

How the results depend on the processing

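SKIL was called against Sep cells in both coculture fractions, with unchanged direction, under every alternative run. Between Susp and Sep cells, the members called numbered 2 with the replicate block, with DESeq2 and with no low-count filter, where ID3 joined SKIL. Between Adh and Sep they numbered 4 without Sep replicate 1 and Susp replicate 2 together, with or without Adh replicate 1. With at least 10 counts in every library, LRRC32 was not tested. LTBP1 was then the 1 other pathway gene called in both comparisons with Sep cells. With no fold minimum 3 other pathway genes were called between Adh and Sep. On leaving libraries out, the members called ranged from 1 to 1 (Susp vs Sep), 1 to 4 (Adh vs Sep, with 4 without Sep replicate 1, where SKI and BMP5 joined) and 0 to 1 (Adh vs Susp, with 0 without replicate 3 or 4 of every group). The other pathway genes called ranged from 1 to 2, 0 to 2 and 0 to 0 in the same order, with the lowest values without replicate 3 of every group, and the mouse pathway genes from 0 to 1.

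Whether the replicate numbers pair the libraries is not settled, and they were not used as pairs, since not all of them passed the correlation of 0.1 set for it. Deviations of libraries with the same number correlated above 0.1 for 3 of 4 numbers in Adh vs Sep, for 2 of 4 in Adh vs MS5, and for 1 of 4 in Susp vs Sep as in Adh vs Susp. The library that correlated best had the same number in 3, 3, 1 and 2 of 4 cases. With the replicate block, called genes went from 94 to 175 (Susp vs Sep) and from 100 to 281 (Adh vs Susp), and mouse genes from 25 to 45.

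With DESeq2, all called genes numbered 172 (Susp vs Sep), 527 (Adh vs Sep, from 309) and 282 (Adh vs Susp), and 38 in mouse. With no low-count filter they were 217, 503, 341 and 45. Without Sep replicate 1 and Susp replicate 2 they were 728 (Adh vs Sep) and 176 (Adh vs Susp), without these and Adh replicate 1 they were 643 (Adh vs Sep), and with no fold minimum 94 in mouse. Leaving out 1 library, they ranged from 64 to 135 (without Sep replicate 2 and Susp replicate 1), from 143 to 519 (Sep replicate 2 and Susp replicate 2) and from 51 to 165 (Adh replicate 1 and Sep replicate 1), and in mouse from 8 to 36 (MS5 replicate 3 and MS5 replicate 1). Without 1 replicate number in every group they fell to 56, 24 and 47 (Susp vs Sep, numbers 2, 3 and 4), to 105 and 92 (Adh vs Sep, numbers 3 and 4), to 25 and 28 (Adh vs Susp, numbers 3 and 4) and to 11, 7 and 8 (mouse, numbers 2, 3 and 4). The cause was not tested. With the GC and length correction, the log2 fold change of SKI between Adh and Susp went from -0.17 to 0.13, as that of TGFB1 went to 0.12. Counts limit SMAD7 and LRRC32 most.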
